A study of Mus musculus with 6 samples.

Results

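Interferon-stimulated genes were followed in mouse acute myeloid leukemia cells that carried retroviral Hoxa9 with or without IRX3. The set holds 47 genes of the antiviral and antigen-presentation response, without the interferon regulatory factor genes, found by gene symbol among the 41128 genes of the expression table. All 47 were listed, and 41 of them were among the 9522 protein-coding genes over 0.5 RPKM in at least 1 mouse that were tested. RPKM, the unit of the table, counts reads per kilobase of the whole gene span scaled to the reads of the library. The study asked how IRX3, a homeodomain transcription factor that is little expressed in normal blood cells, alters leukemias driven by Hoxa9.

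Both cohorts started from CD45.1+ KIT+ bone marrow (BM) cells of C57BL/6 background, transduced with retroviral Hoxa9 and a second retroviral vector, and transplanted into irradiated CD45.2+ recipients. The second vector was the empty control MTV in the Hoxa9/MTV cohort (mice 1.1, 1.2 and 1.4) and human IRX3 cDNA in the Hoxa9/IRX3 cohort (mice 3.2, 3.3 and 3.5). Donors and recipients were young adult females, and all 6 leukemias carry Hoxa9, so no library stands for normal BM. Each library holds RNA of KIT+Gr1+ cells sorted from the leukemic BM of 1 mouse, where KIT marks progenitors and Gr1 is a myeloid surface antigen made by Ly6c and Ly6g genes. How many clones each leukemia held is not given in the sources used here. In bulk libraries such as these, fewer cells that express a gene and less RNA per cell cannot be told apart.

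The libraries held 7979246 to 9803621 reads, recovered from the steps between low RPKM values. Mouse Irx3 was listed at 0 RPKM in all Hoxa9/MTV libraries, and in mice 3.2, 3.3 and 3.5 its level was 15.1, 0.421 and 0.148 RPKM, where reads of the human cDNA assigned to the mouse gene and endogenous Irx3 cannot be told apart. The paper reports that IRX3 was readily found at a high level in BM cells of Hoxa9/IRX3 leukemias. How well reads of the human cDNA align to the mouse gene was not tested. Hoxa9 ranged from 154 to 363 RPKM. Of the surface genes behind the sort, Kit ranged from 1.63 to 3.12 RPKM and Ly6c2 from 413 to 844 RPKM. Across all tested genes, values were spread more widely among the Hoxa9/IRX3 mice than among the Hoxa9/MTV mice in 75.9%.

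Type I interferons signal through the receptor IFNAR1 and IFNAR2 and the kinases JAK1 and TYK2 to a transcription factor complex that holds STAT2 and IRF9 and binds interferon-stimulated response elements (ISRE) in promoters. Interferon gamma signals through IFNGR1 and IFNGR2 to factors that bind GAS elements. The genes so induced encode sensors of foreign nucleic acid, proteins that block viral entry, translation and replication, guanylate-binding GTPases, and the machinery that loads peptides on MHC class I. In blood-forming cells a basal level of this program is present without infection.

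Promoter letters of these genes are shown first, because the set was chosen by name and the letters were no part of the choice. RefSeq promoters on GRCm38.p6, from 250 bases before to 50 bases after each gene start, were on hand for 36 of the 47 genes as 42 promoters. Those of Parp9, Parp14, Oas2, Mx1, Mx2, Zbp1, Usp18, Rtp4, Dhx58, Tap2 and Ifi27l2a were not among them. The ISRE core GAAANNGAA, which reads TTCNNTTTC on the other strand, stood in 22 of the 42 promoters (52.4%) against 8.56% of all 32851 promoters. The GAS core TTCNNNGAA, a palindrome, stood in 11 of the 42 (26.2%) against 8.30%, and both cores stood in 7 (16.7%) against 1.07%. The cores may overlap each other, and a match is a description of letters and not a bound site. Stretches of 5 genes with the core are printed below with the core in capitals, for genes whose values are given further on, followed by Dtx3l, whose window held no ISRE core. Each is written 5′ to 3′ on the strand of its gene, on GRCm38.p6.
Isg15 (chr4:156200850-156200909, minus strand): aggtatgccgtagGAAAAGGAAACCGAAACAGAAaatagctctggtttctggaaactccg
Ifit1 (chr19:34640780-34640839, plus strand): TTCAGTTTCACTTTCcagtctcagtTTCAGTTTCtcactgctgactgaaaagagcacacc
Rsad2 (chr12:26456537-26456596, minus strand): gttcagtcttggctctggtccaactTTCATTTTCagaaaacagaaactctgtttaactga
Irgm1 (chr11:48871410-48871469, minus strand): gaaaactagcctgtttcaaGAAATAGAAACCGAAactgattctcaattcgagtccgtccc
Ddx58 (chr4:40239806-40239865, minus strand): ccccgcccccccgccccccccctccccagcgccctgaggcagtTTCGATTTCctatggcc
Dtx3l (chr16:35939028-35939087, minus strand): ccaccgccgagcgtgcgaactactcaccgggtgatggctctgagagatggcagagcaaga

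Isg15 and Ifit1 held 3 cores each, Irgm1 held 2 overlapping cores, and Rsad2 held 1. The core of Ddx58 lay wholly past the RefSeq gene start, within the transcribed part, and those of Irgm1 lay before its RefSeq start. The annotated span of Irgm1 used for its RPKM reaches farther upstream and holds its cores. Of the tested genes with a promoter on hand, all 19 with the ISRE core and 10 of the 13 without it had a positive log2 change in Hoxa9/IRX3, with medians of 0.52 and 0.59. Some of these genes passed the limit for testing only through Hoxa9/IRX3 mice, so the counts describe them and test nothing.

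**Figure D1:**
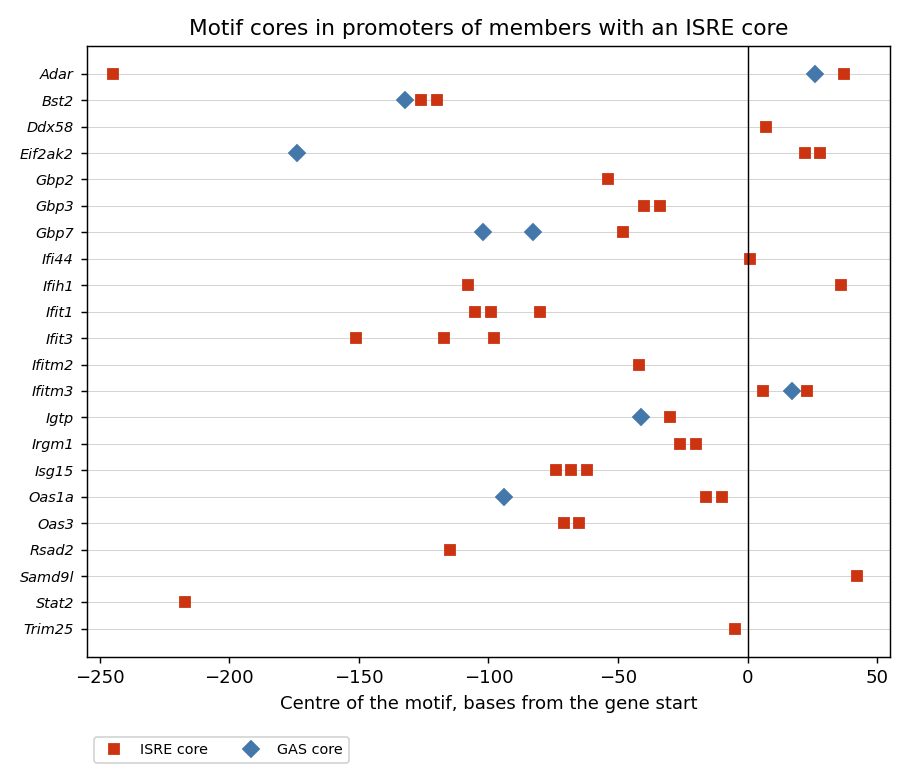
Centres of ISRE cores (red squares) and GAS cores (blue diamonds), in bases from the gene start, for the 22 genes whose promoter window holds an ISRE core. Most ISRE cores lie before the start, and the only ones of Ddx58, Ifitm3, Eif2ak2 and Samd9l lie after it.

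Of the 41 tested genes, 2 rose in Hoxa9/IRX3 leukemias at an adjusted p under 0.05 (limma), Ddx58 and Dtx3l, and 0 fell. The background was 1.84% of all tested genes higher and 3.52% lower. None of the 41 passed both the adjusted p and a 2-fold change on the log2(RPKM + 0.5) scale, which 3.13% of all tested genes did. At an unadjusted p under 0.05 limma gave 12 of the 41, all higher in Hoxa9/IRX3, beside 8.34% of all tested genes higher and 16.0% lower. With voom on recovered reads 2 passed the adjusted p and 2-fold, Ddx58 and Parp12, both higher, beside 1.5% of all tested genes higher and 2.35% lower. The median log2 change of the 41 was 0.49, beside -0.06 over all tested genes, and 35 of 41 (85.4%) were positive, beside 42.5%. 10 of the 41 passed the 0.5 RPKM limit only through Hoxa9/IRX3 mice, so their highest value had to lie there, which favored a positive log2 change. These were Ifitm1, Ddx58, Parp12, Oas2, Ifit1, Rsad2, Oasl2, Zbp1, Rtp4 and Gbp2, and for Ifit1, Rsad2, Oasl2, Zbp1 and Rtp4 mouse 3.3 alone passed it. The 30 members over 0.5 RPKM in a mouse of each cohort had a smaller median log2 change of 0.32, beside -0.08 over the 8459 such genes. Of these 30, 25 (83.3%) were positive, beside 39.8%.

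Over all 47 genes, with no filter, the mean RPKM was higher in Hoxa9/IRX3 mice for 39 (83.0%), beside 48.5% of the 14755 protein-coding genes with a value above 0. Without mouse 3.3 it was higher for 31 (66.0%), beside 45.0%. The cohorts did not overlap for 12 of the 47, each time with all Hoxa9/IRX3 mice above, and for 0 with all below. Of those 14755 protein-coding genes, 11.5% lay above and 17.5% below. The 12 were Ddx58, Dtx3l, Parp12, Parp14, Parp9, Isg20, Irgm1, Igtp, Rsad2, Cmpk2, Eif2ak2 and Ifih1.

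**Figure D2:**
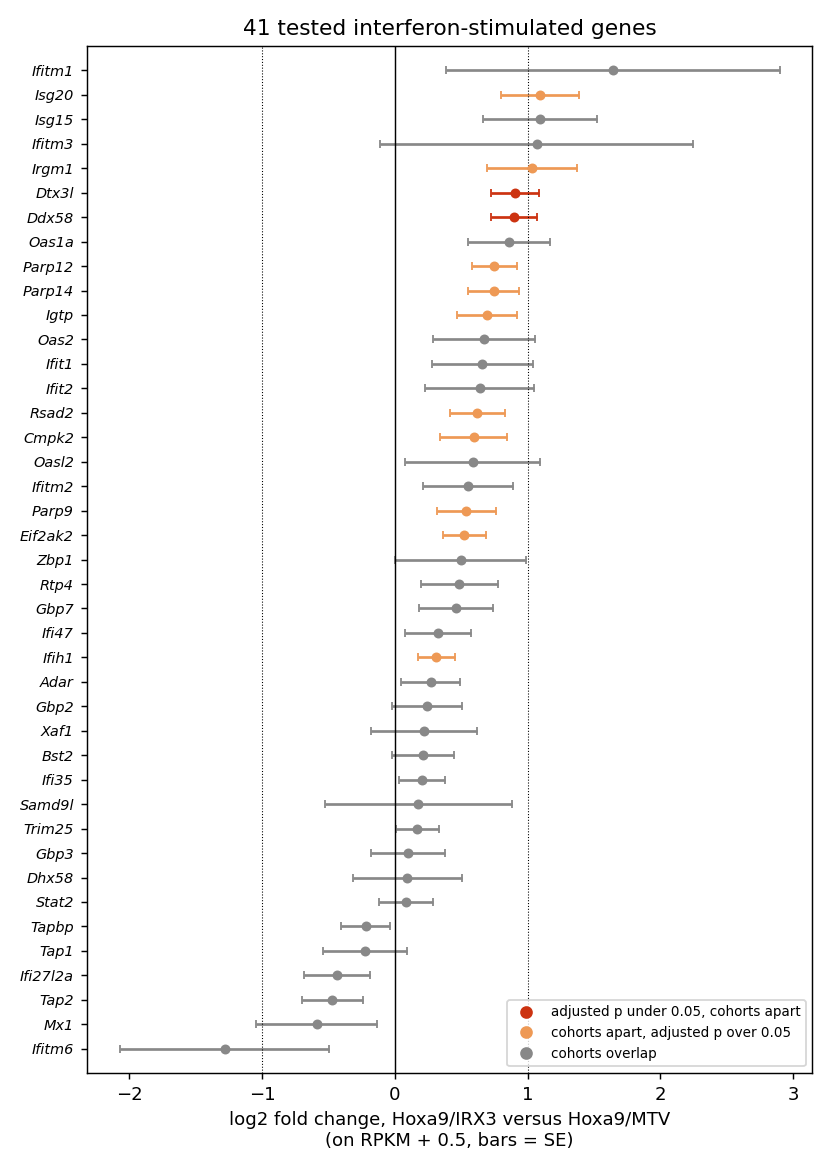
log2 fold change of RPKM + 0.5, Hoxa9/IRX3 versus Hoxa9/MTV, with its standard error (bars) for the 41 tested genes, dotted lines marking 2-fold. 35 points lie to the right of 0, the 2 red points are Ddx58 and Dtx3l, and the widest bars belong to Ifitm1 and Ifitm3.

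The sensors of foreign nucleic acid held 1 of the called genes. Ddx58 encodes RIG-I, a helicase that detects viral RNA with a 5′ triphosphate end, and lies at chr4:40203773-40239828 on GRCm38. It stood at 0.207, 0.150 and 0.181 RPKM for Hoxa9/MTV mice 1.1, 1.2 and 1.4, and at 0.826, 0.521 and 0.987 RPKM for Hoxa9/IRX3 mice 3.2, 3.3 and 3.5. Values of each cohort are given in this order throughout. The lowest Hoxa9/IRX3 value, in mouse 3.3, exceeded every Hoxa9/MTV value. These values rest on 45 to 66 reads per Hoxa9/MTV mouse and 184 to 284 reads per Hoxa9/IRX3 mouse. The means were 0.179 ± 0.0284 and 0.778 ± 0.237 RPKM (SD, n = 3 each), a 4.34-fold ratio, and the log2 change with the pseudocount of 0.5, which shrinks changes of low genes, was 0.90 ± 0.17 (SE, limma adjusted p = 0.0378). Leaving out 1 mouse at a time gave log2 changes of 0.78 to 1.05 and adjusted p of 0.0188 to 0.156, and the call was kept only without mouse 3.3. Without a Hoxa9/MTV mouse 61 to 76 of all tested genes were called, beside 510 with all 6 mice.

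Ifih1, which encodes the sensor MDA5 for long double-stranded RNA, stood at 0.545, 0.537 and 0.541 RPKM in Hoxa9/MTV leukemias and 1.02, 0.687 and 0.690 RPKM in Hoxa9/IRX3 leukemias. The cohorts were apart, and the log2 change of 0.31 ± 0.14 did not pass (limma adjusted p = 0.231). Eif2ak2, the kinase PKR that halts translation on binding double-stranded RNA, stood at 1.57, 1.54 and 1.63 RPKM against 2.42, 3.21 and 1.96 RPKM. The cohorts were apart here too, and the log2 change was 0.52 ± 0.16 (limma adjusted p = 0.116). The other sensors and effectors overlapped between cohorts. Their log2 changes were 0.27 for Adar, an RNA-editing enzyme, 0.17 for Trim25, the ubiquitin ligase that acts on RIG-I, 0.09 for Dhx58, the helicase LGP2, and 0.49 for Zbp1, a sensor of Z-form nucleic acid, none of which passed.

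All 4 genes of the PARP and Dtx3l group were apart between cohorts, where 12.2% of all tested genes lay above in this way. Dtx3l, a ubiquitin ligase that pairs with the ADP-ribosyltransferase PARP9, lies at chr16:35926511-35939151. It stood at 16.2, 12.7 and 14.0 RPKM in Hoxa9/MTV leukemias and 23.0, 32.9 and 26.2 RPKM in Hoxa9/IRX3 leukemias, on 1337 to 4079 reads per mouse. Its lowest Hoxa9/IRX3 value was above its highest Hoxa9/MTV value. The means were 14.3 ± 1.75 and 27.4 ± 5.06 RPKM, and the log2 change was 0.91 ± 0.18 (limma adjusted p = 0.0399). Leaving out 1 mouse at a time gave log2 changes of 0.77 to 1.02 and adjusted p of 0.0307 to 0.163, and the call was kept only without mouse 3.2.

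Parp9 lies head to head with Dtx3l, and the annotated genes share 682 bases on opposite strands. The libraries keep the strand, and whether the counting used it is not given in the sources used here. Parp9 stood at 1.42, 1.05 and 1.12 RPKM in Hoxa9/MTV leukemias and 1.63, 2.95 and 1.52 RPKM in Hoxa9/IRX3 leukemias. The gap between cohorts was small, and the log2 change was 0.54 ± 0.22 (limma adjusted p = 0.204). Parp14, an ADP-ribosyltransferase that lies next to this pair on chromosome 16, stood at 1.38, 0.887 and 1.305 RPKM against 1.72, 2.75 and 2.56 RPKM. The estimated log2 change was 0.74 ± 0.19 (limma adjusted p = 0.0764).

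Parp12, an ADP-ribosyltransferase that restrains alphavirus replication, is on chromosome 6, away from the other three. It stood at 0.0991, 0.0377 and 0.129 RPKM in Hoxa9/MTV leukemias and 0.668, 0.412 and 0.404 RPKM in Hoxa9/IRX3 leukemias. This rested on 10 to 40 reads per Hoxa9/MTV mouse and 103 to 189 reads per Hoxa9/IRX3 mouse, a 5.57-fold ratio of the means. Its log2 change was 0.75 ± 0.17 with the pseudocount of 0.5 RPKM (limma adjusted p = 0.058), 2.55 with voom on recovered reads (adjusted p = 0.0464), and 1.90 with exon length in place of the gene span (adjusted p = 0.0224).

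**Figure D3:**
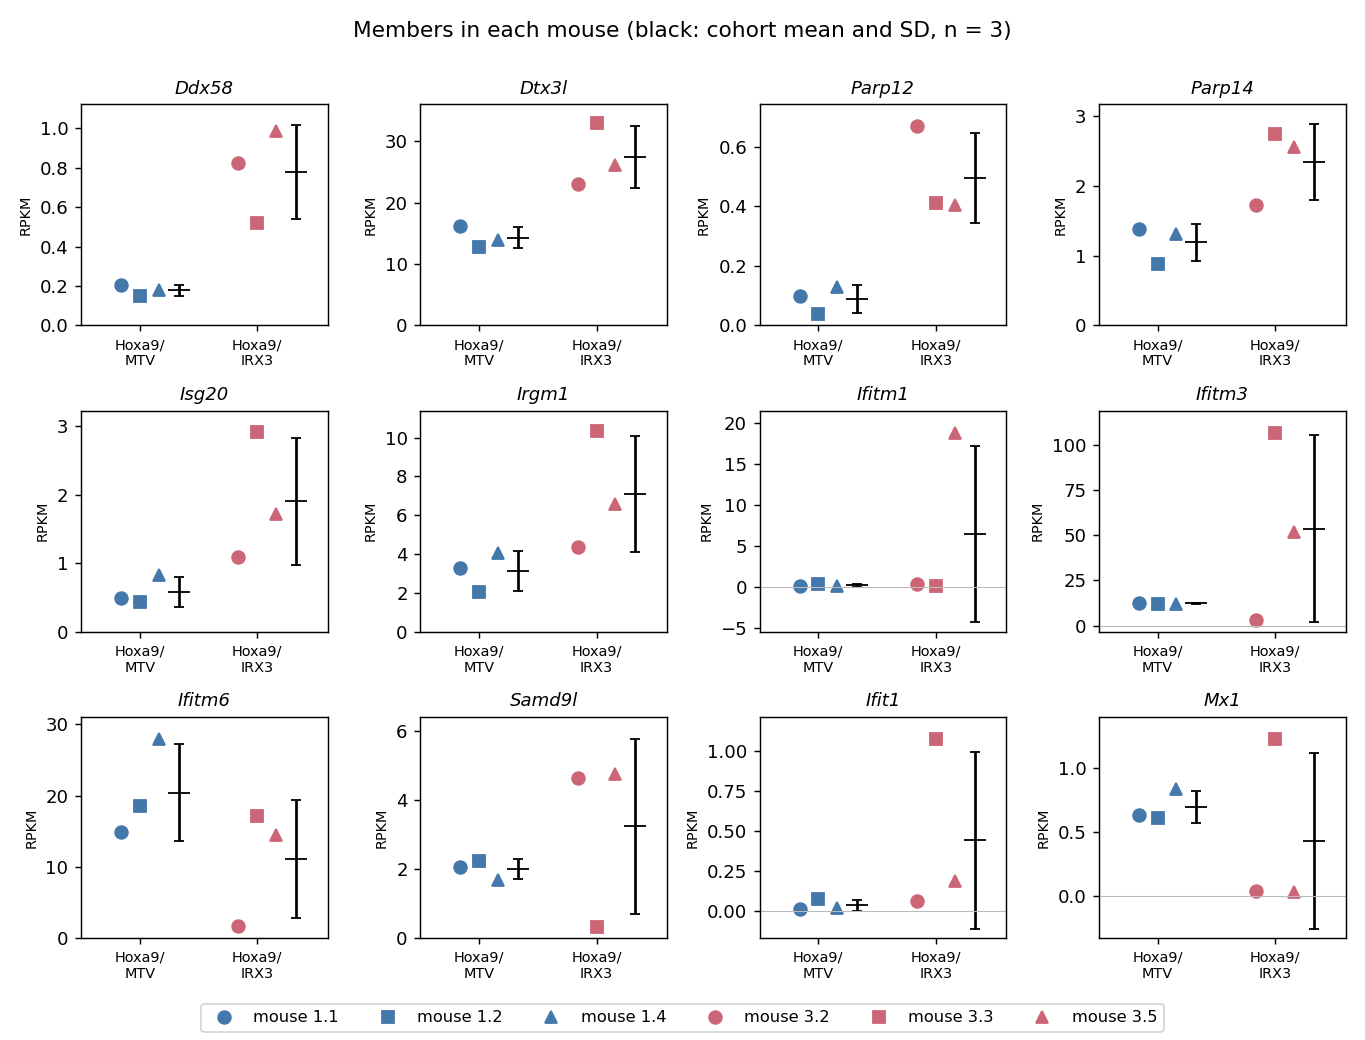
RPKM of 12 interferon-stimulated genes in each mouse (blue, Hoxa9/MTV; red, Hoxa9/IRX3; linear axes), with the cohort mean and SD (n = 3) in black. The first 6 genes have all Hoxa9/IRX3 mice above all Hoxa9/MTV mice, and in the last 6 single Hoxa9/IRX3 mice stand apart, such as mouse 3.5 for Ifitm1 and mouse 3.3 for Ifit1 and Mx1.

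Among the nucleases and the 2′-5′ oligoadenylate synthetases (OAS), which make the activator of RNase L, only Isg20 was apart between cohorts. Isg20, an exonuclease of single-stranded RNA, stood at 0.489, 0.434 and 0.834 RPKM in Hoxa9/MTV leukemias and 1.09, 2.91 and 1.72 RPKM in Hoxa9/IRX3 leukemias. Its log2 change was 1.10 ± 0.29 (limma adjusted p = 0.0821, and 0.0352 without mouse 3.2). Oas1a had a log2 change of 0.86 and overlapped between cohorts. Oas2 was highest in mouse 3.2, at 1.23 RPKM, against 0.0583 to 0.250 RPKM in the other mice. Oasl2, an OAS-like protein, was at 0.185, 0.157 and 0.223 RPKM in the Hoxa9/MTV cohort, and for mice 3.2, 3.3 and 3.5 the values were 0.00738, 1.81 and 0.442 RPKM. Its Hoxa9/IRX3 values ran from 1 read to 271 reads, and the log2 change of 0.59 ± 0.51 did not pass (limma adjusted p = 0.511). Oas3 and Oasl1 did not reach 0.5 RPKM in any mouse and were not tested.

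The interferon-inducible GTPases attack the vacuoles of intracellular pathogens or bind viral capsids. Irgm1 stood at 3.27, 2.03 and 4.06 RPKM in Hoxa9/MTV leukemias and 4.38, 10.3 and 6.59 RPKM in Hoxa9/IRX3 leukemias. Mouse 3.2 was barely above the highest Hoxa9/MTV mouse, and the log2 change was 1.03 ± 0.34 (limma adjusted p = 0.128). Igtp stood at 1.77, 2.29 and 2.17 RPKM against 2.70, 5.27 and 3.42 RPKM, a log2 change of 0.70 ± 0.23 (limma adjusted p = 0.126). Igtp shares 7974 bases on its own strand with Irgm2, so reads of these genes may have been counted for both. The guanylate-binding proteins Gbp2, Gbp3 and Gbp7 and the GTPase Ifi47, whose whole span is shared with Olfr56 on its strand, had log2 changes of 0.10 to 0.46 with overlapping cohorts.

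Mx1, a dynamin-like GTPase that traps viral nucleoproteins, differed among the Hoxa9/IRX3 mice in direction. Its level was 0.634, 0.614 and 0.840 RPKM in the Hoxa9/MTV cohort, and for mice 3.2, 3.3 and 3.5 it was 0.0427, 1.23 and 0.0316 RPKM. Mice 3.2 and 3.5 were below all Hoxa9/MTV mice and mouse 3.3 was above all of them. Its log2 change was -0.59 ± 0.46 (limma adjusted p = 0.463), and without mouse 3.3 it was -1.15 (adjusted p = 0.019). Mx2, at 0 to 0.175 RPKM, was likewise highest in mouse 3.3 and below all Hoxa9/MTV mice in mice 3.2 and 3.5, is annotated as a polymorphic pseudogene and was not tested. In C57BL/6 mice both Mx genes are known to carry inactivating changes, as background.

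The membrane restriction factors held both the highest levels and the widest spread. Ifitm2, Ifitm3, Ifitm1 and Ifitm6 are of a chromosome 7 cluster of interferon-induced transmembrane proteins that hinder viral fusion. Among the Hoxa9/IRX3 mice, mouse 3.3 was highest and mouse 3.2 lowest for Ifitm2, Ifitm3 and Ifitm6. For Ifitm1 mouse 3.5 was highest and mouse 3.3 lowest. Ifitm3 stood at 12.8, 12.2 and 11.9 RPKM in Hoxa9/MTV leukemias and 2.95, 106 and 51.5 RPKM in Hoxa9/IRX3 leukemias. Mouse 3.2 lay below and mice 3.3 and 3.5 lay far above the narrow Hoxa9/MTV range, so that the log2 change was 1.07 ± 1.18 (limma adjusted p = 0.607). Without mouse 3.2 it was 2.55 (adjusted p = 0.015).

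Ifitm2 stood at 63.2, 62.6 and 67.2 RPKM in Hoxa9/MTV leukemias and 53.8, 129.7 and 120.2 RPKM in Hoxa9/IRX3 leukemias, with the same 2 mice high. The log2 change of Ifitm2 was 0.55 ± 0.34 (limma adjusted p = 0.357, and 0.0212 without mouse 3.2). Ifitm1 stood at 0.0868, 0.370 and 0.119 RPKM in Hoxa9/MTV leukemias and 0.303, 0.117 and 18.9 RPKM in Hoxa9/IRX3 leukemias. Mouse 3.5 alone was high, on 392 reads against 2 to 8 in the other mice, and the log2 change was 1.64 ± 1.25 (limma adjusted p = 0.456). Ifitm6, a myeloid member of the family, stood at 14.9, 18.5 and 27.9 RPKM in Hoxa9/MTV leukemias and 1.67, 17.2 and 14.5 RPKM in Hoxa9/IRX3 leukemias. It was low in mouse 3.2 alone, and the log2 change was -1.28 ± 0.79 (limma adjusted p = 0.358). Bst2, the tetherin that holds budding virions at the membrane, was at 7.98 to 10.7 RPKM in 5 mice and at 15.2 RPKM in mouse 3.3.

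The IFIT proteins bind foreign RNA lacking the methylated cap. Ifit1 was at 0.0124 to 0.192 RPKM in 5 mice and at 1.07 RPKM in mouse 3.3. Ifit2 was high in mice 3.3 (2.08 RPKM) and 3.5 (2.17 RPKM) and ranged from 0.446 to 0.963 RPKM in the other 4 mice. Ifit3 never passed 0.065 RPKM and was not tested. Isg15, a ubiquitin-like modifier, stood at 0.0811, 0.259 and 0.889 RPKM in Hoxa9/MTV leukemias and 0.809, 2.56 and 0.988 RPKM in Hoxa9/IRX3 leukemias, and its log2 change of 1.09 ± 0.43 did not pass (limma adjusted p = 0.181). Usp18, which removes ISG15 and dampens the receptor, reached 0.322 RPKM in mouse 3.3 and 0 to 0.0541 RPKM in the others.

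Rsad2 encodes viperin, which makes a chain-terminating nucleotide from CTP, and its neighbor Cmpk2, 12751 bases away in divergent orientation, encodes a kinase that supplies the CTP. Rsad2 stood at 0.0825, 0.114 and 0.158 RPKM in Hoxa9/MTV leukemias and 0.305, 0.759 and 0.348 RPKM in Hoxa9/IRX3 leukemias. The log2 change of Rsad2 was 0.62 ± 0.21 (limma adjusted p = 0.136). Cmpk2 stood at 2.07, 1.66 and 2.39 RPKM against 2.65, 2.62 and 5.12 RPKM, with a log2 change of 0.59 ± 0.26 (limma adjusted p = 0.216). Both were apart between the cohorts, and their highest mice differed, 3.3 for Rsad2 and 3.5 for Cmpk2.

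The 3 genes of peptide loading on MHC class I, which lie in the MHC region of chromosome 17, were the group with no positive change. Tap1, a subunit of the peptide transporter, stood at 23.7, 24.2 and 21.9 RPKM in Hoxa9/MTV leukemias and 12.8, 32.0 and 18.9 RPKM in Hoxa9/IRX3 leukemias. The log2 change of Tap1 was -0.22 ± 0.31 (limma adjusted p = 0.693), and it turned to 0.08 without mouse 3.2. Tapbp, which encodes the chaperone tapasin, stood at 33.004, 32.8 and 39.7 RPKM against 24.9, 29.5 and 36.8 RPKM, a log2 change of -0.22 ± 0.19 (limma adjusted p = 0.501). Tapbp shares 3422 bases on its strand with Zbtb22. Tap2, the other transporter subunit, had a log2 change of -0.47 ± 0.23 (limma adjusted p = 0.26). All 3 genes were lowest in mouse 3.2.

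Of the remaining genes, Samd9l, a translation inhibitor that restrains growth of blood progenitors, stood at 2.07, 2.23 and 1.67 RPKM in Hoxa9/MTV leukemias and 4.64, 0.314 and 4.75 RPKM in Hoxa9/IRX3 leukemias. It ran against most of the set, with mouse 3.3 lowest and mice 3.2 and 3.5 highest. The log2 change was 0.17 ± 0.70 (limma adjusted p = 0.90), and 1.07 without mouse 3.3 (adjusted p = 0.0175). Stat2, Ifi35, Xaf1 and Rtp4 had log2 changes of 0.08 to 0.49 and Ifi27l2a of -0.44, with overlapping cohorts. Ifi44 held at most 3 reads in any mouse.

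Levels between genes were compared per kilobase of exon, since the deposited RPKM divide by introns as well. On this scale Ifitm2 led with a mean of 142 reads per kilobase of exon, scaled like RPKM, over the 6 mice, followed by Tapbp at 121, Tap2 at 58.9, Ifitm3 at 57.6 and Dtx3l at 46.0. Reads from introns or from a gene that shares the span may be counted in these values. Tapbp shares 3422 bases on its strand with Zbtb22, whose mean was 25.9 RPKM. The ranges of Tapbp (92.0 to 146) and Ifitm2 (92.2 to 222) overlapped, as did those of Tap2 (35.4 to 77.4), Ifitm3 (5.16 to 186) and Dtx3l (28.1 to 72.7). The classical antiviral genes Ifit1, Rsad2, Oasl2, Mx2, Usp18 and Oas3 were among the lowest.

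**Figure D4:**
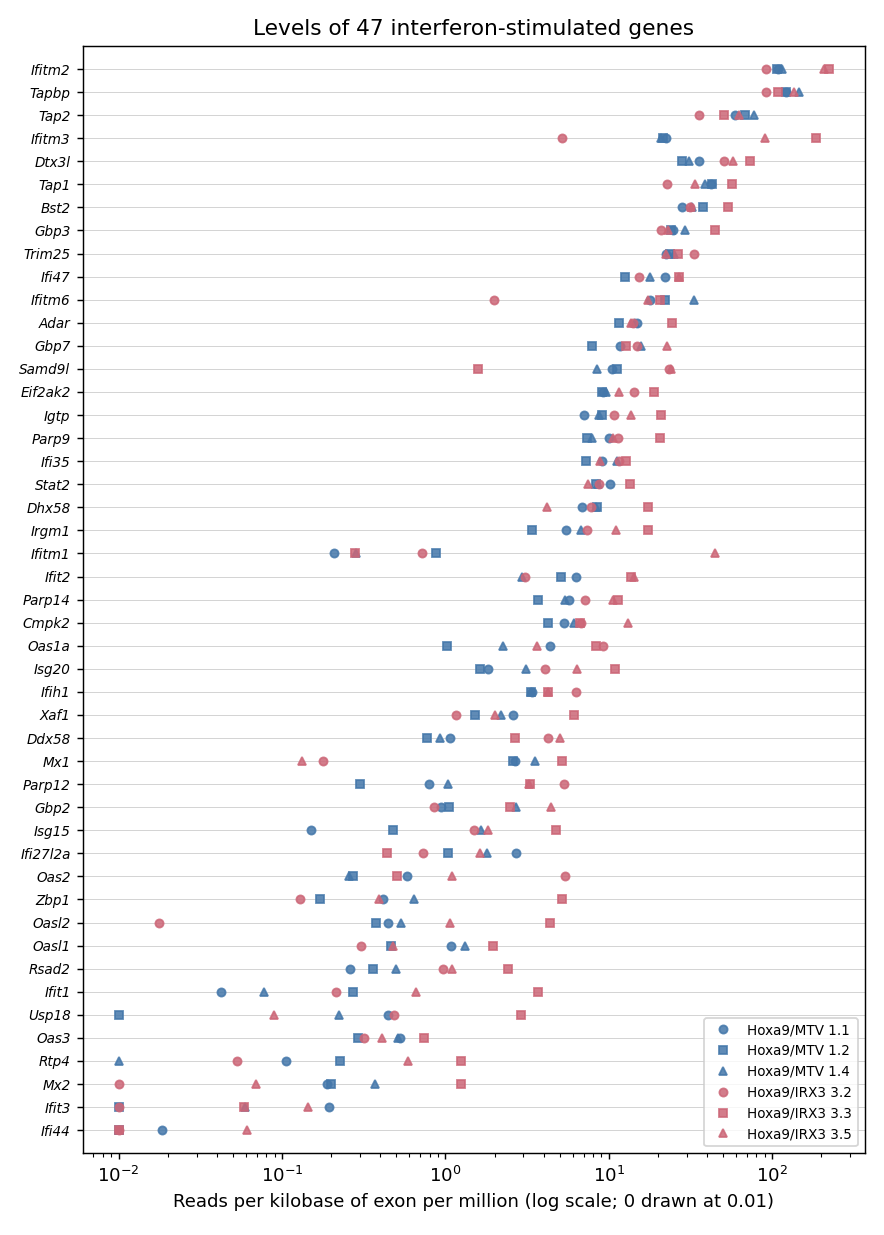
Reads per kilobase of exon, scaled to library reads like RPKM (log axis), of the 47 genes in each mouse, ordered by the mean, with 0 drawn at 0.01. Red squares (mouse 3.3) are the rightmost points of many rows, and Ifitm3, Ifitm6, Ifitm1, Samd9l and Mx1 show the Hoxa9/IRX3 mice on different sides of the Hoxa9/MTV mice.

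The 3 Hoxa9/IRX3 mice differed from each other over the set. Mouse 3.3 was the highest of the 6 in 28 of the 47 genes (59.6%), beside 19.4% of the 14755 protein-coding genes with a value above 0. Mouse 3.5 was highest in 9, mouse 3.2 in 5 and the Hoxa9/MTV mice together in the rest. With no filter on low values, the median of log2(RPKM + 0.5) minus the Hoxa9/MTV mean over the 47 genes was 0.63 in mouse 3.3, 0.26 in mouse 3.5 and -0.0057 in mouse 3.2. Over the 14755 protein-coding genes with a value above 0 it was between -0.023 and -0.0015 in these mice. In mouse 3.3, 17 of the 47 (36.2%) lay at least 1 log2 unit above the Hoxa9/MTV mean, beside 2.41% of those protein-coding genes. In 19 of the 47 genes mouse 3.3 had at least 2 times the RPKM of the highest Hoxa9/MTV mouse. The share of all genes that did so was not counted, so this number cannot be set against a background. Some of the 19 rest on few reads, such as Rtp4, with 26 reads in mouse 3.3 and 0 to 4 in Hoxa9/MTV mice.

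Genes far higher in mouse 3.3 than in any other mouse, chosen after their values were seen, were Ifit1, Zbp1, Oasl2, Usp18 and Mx2. For Ifit1 and Oasl2 mouse 3.5 was also above all Hoxa9/MTV mice, on 14 and 54 reads, beside 96 and 271 reads in mouse 3.3. Zbp1 rested on 179 reads in mouse 3.3 and on 4 and 11 reads in mice 3.2 and 3.5, beside 5 to 22 in Hoxa9/MTV mice. Usp18 rested on 79 reads, beside 12 and 2, and Mx2 on 44 reads, beside 0 and 2. The spread within the Hoxa9/IRX3 cohort was wider than within Hoxa9/MTV in 42 of the 47 genes (89.4%). Among the 41 tested members it was wider in 37 (90.2%), beside 75.9% of all tested genes.

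**Figure D5:**
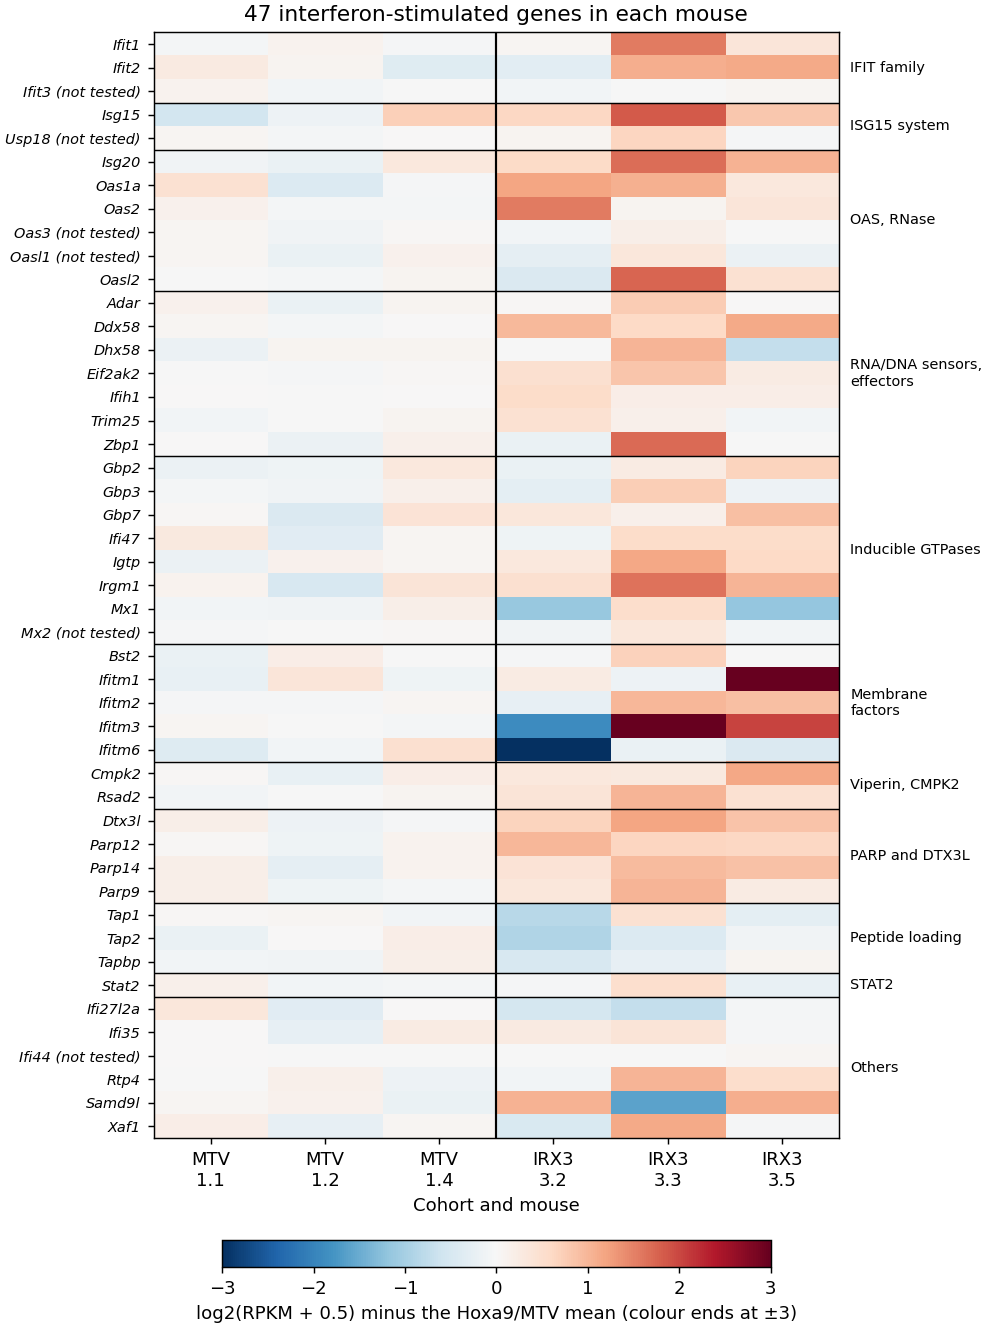
log2(RPKM + 0.5) minus the Hoxa9/MTV mean for the 47 genes (rows, by role) in each mouse (columns), red above and blue below, with colours ending at 3 log2 units. Mouse 3.3 is red in most rows, the PARP and DTX3L rows are red in all Hoxa9/IRX3 mice, and the peptide loading rows are blue in mouse 3.2.

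All 21 interferon ligand genes of the table, 14 of type alpha or the related Ifnab, and Ifnb1, Ifne, Ifnk, Ifnz, Ifnl2, Ifnl3 and Ifng, were listed at 0 in all 6 mice. Among the alignments kept, a count of 0 allows up to 3 reads per library. The authors removed alignments of low quality, so reads that fit several similar ligand genes may be missing from these counts. Cells outside the sorted gate were not measured.

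Of the 6 receptor genes, 0 passed the adjusted p in either direction, beside 1.84% of all tested genes higher and 3.52% lower. Both chains of the type I receptor were below Hoxa9/MTV in all Hoxa9/IRX3 mice, with 6.79, 7.15 and 7.23 against 5.11, 5.88 and 4.11 RPKM for Ifnar1 (log2 change -0.46 ± 0.15, limma adjusted p = 0.124). For Ifnar2 the values were 7.72, 6.63 and 6.53 against 5.42, 5.23 and 4.43 RPKM (log2 change -0.43 ± 0.13, limma adjusted p = 0.113). Ifngr2, a chain of the type II receptor, and Il10rb, a chain of the type III receptor, were likewise below, with log2 changes of -0.62 and -0.52 (limma adjusted p = 0.0822 and 0.0904). Ifngr1 overlapped between cohorts at 0.38. Ifnlr1, the specific chain of the type III receptor, stood at 0.0425 to 0.0825 RPKM in Hoxa9/MTV leukemias and 2.76, 0.913 and 0.229 RPKM in Hoxa9/IRX3 leukemias (log2 change 1.41 ± 0.50, limma adjusted p = 0.152). This was the one receptor gene with all Hoxa9/IRX3 mice above. Over all tested genes, 12.2% had all Hoxa9/IRX3 mice above and 21.6% had all of them below.

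Of the 5 kinases and transcription factors listed below the receptors, 0 passed in either direction, beside 1.84% of all tested genes higher and 3.52% lower. Irf9, the DNA-binding subunit of the type I complex, was at 4.86 to 7.79 RPKM in 5 mice and at 15.4 RPKM in mouse 3.3. Jak2 was below in all Hoxa9/IRX3 mice at a log2 change of -0.40, and Jak1, Tyk2 and Stat3 overlapped at 0.12, -0.25 and 0.18.

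Of the 7 feedback inhibitors 0 passed, with all 7 tested. Of the 15 tested genes that induce interferon, 0 rose and 2 fell, both past 2-fold. Over all tested genes, 1.84% rose and 3.52% fell at the adjusted p. Tlr9, the endosomal receptor for CpG DNA, stood at 6.83, 3.20 and 5.28 RPKM in Hoxa9/MTV leukemias and 0.105, 0.595 and 0.234 RPKM in Hoxa9/IRX3 leukemias (log2 change -2.78 ± 0.31, limma adjusted p = 0.00854). Irf5, a transcription factor downstream of these receptors, stood at 10.7 to 11.2 against 0.863 to 1.24 RPKM (log2 change -2.93 ± 0.13, limma adjusted p = 5.02e-04). Irf7, the amplifier of interferon alpha and itself interferon-induced, was at 7.02 RPKM in mouse 3.3 and at 0.351 to 2.05 RPKM in the others. Irf8, a factor of monocyte and dendritic cell development, was at 63.1 RPKM in mouse 3.3, at 2.61 and 2.98 RPKM in mice 3.2 and 3.5, and at 25.5 to 39.6 RPKM in Hoxa9/MTV mice.

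A further 68 interferon-stimulated genes outside the 47 moved in both directions and had a smaller median log2 change. Of the 44 tested, 3 rose and 1 fell, beside 1.84% and 3.52% of all tested genes. The median log2 change was 0.10 and the range -2.06 to 1.74, with 24 positive and 20 negative. At an unadjusted p under 0.05 limma gave 14 of the 44, 9 of them higher. All Hoxa9/IRX3 mice lay above for 9 and below for 7, beside 12.2% and 21.6% of all tested genes. Ifi27, a mitochondrial protein induced by interferon alpha, rose from 0.909 to 1.54 RPKM in Hoxa9/MTV mice to 3.60 to 5.41 RPKM in Hoxa9/IRX3 mice (log2 change 1.41 ± 0.20, limma adjusted p = 0.0178). Irgm2 and Pml, which encodes the scaffold of nuclear bodies, rose by less than 2-fold at 0.94 and 0.86 (limma adjusted p = 0.0386 and 0.0498), and both are named after their values were seen. Ly6e, a surface protein of the LY6 family that interferon induces, fell from 214 to 338 RPKM to 53.1 to 81.2 RPKM (log2 change -2.06 ± 0.23, limma adjusted p = 0.00893). Whether the median of these 44 genes differed from that of the 41 was not tested.

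Markers of other cells that the sort could hold were read beside mouse 3.3. Of the 8 plasmacytoid dendritic cell markers, the summed level was 1.31 to 2.77 RPKM in Hoxa9/MTV mice and 1.597, 2.03 and 1.57 RPKM in mice 3.2, 3.3 and 3.5. Of these, Siglech was at 0, 0 and 0.0117 RPKM in mice 3.2, 3.3 and 3.5 and at 0.115 to 0.274 RPKM in Hoxa9/MTV mice. Cox6a2 was at 0 in all Hoxa9/IRX3 mice and at 0.364 to 1.67 RPKM in Hoxa9/MTV mice, and Klk1 was at 0 in all 6. Tcf4 was above all Hoxa9/MTV mice in mice 3.3 and 3.5, at 0.516 and 0.437 RPKM, and below them in mouse 3.2, at 0.0798 RPKM. Bcl11a, at 1.12 RPKM in mouse 3.3, was higher in all Hoxa9/IRX3 mice (log2 change 1.42 ± 0.20, limma adjusted p = 0.0153). The 7 conventional dendritic cell markers summed to 0.0565 to 0.0888 RPKM in Hoxa9/IRX3 mice and to 0.692 to 1.51 RPKM in Hoxa9/MTV mice. In Hoxa9/MTV mice most of it came from Flt3, at 0.604 to 0.999 RPKM, against 0.00162 to 0.0252 RPKM in Hoxa9/IRX3 mice. Flt3 was the only tested gene of this list (log2 change -1.35 ± 0.16, limma adjusted p = 0.0102). The 13 listed monocyte and macrophage markers summed to 520 RPKM in mouse 3.3. The sums were 116 and 149.5 RPKM in mice 3.2 and 3.5 and 469 to 497 RPKM in Hoxa9/MTV mice. Most of it came from Mpeg1, which alone stood at 505, 58.2 and 131 RPKM in mice 3.3, 3.2 and 3.5. In mouse 3.3 only Csf1r and Mpeg1 of the 13 were above all Hoxa9/MTV mice, and 6 were below them. All 6 tested markers had a negative log2 change, and Ccr2 was called lower (log2 change -2.06 ± 0.23, limma adjusted p = 0.00843). Csf1r was likewise highest in mouse 3.3, at 6.43 RPKM, beside 4.77 to 5.94 RPKM in Hoxa9/MTV mice and 0.790 and 0.552 RPKM in mice 3.2 and 3.5, while Cd14 and Ccr2 were lowest in mouse 3.3, and Ms4a7, C1qa and C1qc were at 0 in all Hoxa9/IRX3 mice. The 12 neutrophil markers summed to 1145 RPKM in mouse 3.3 and to 1505 to 3392 RPKM in the others, most of it from Ngp and S100a8. Of the 12, 3 rose in Hoxa9/IRX3 leukemias (Ly6g, Retnlg and Cd177) and 0 fell, beside 1.84% and 3.52% of all tested genes. 9 of the 12 had a positive log2 change. In mouse 3.3 Ly6g, Retnlg, Cd177, Mmp9 and Csf3r were above all Hoxa9/MTV mice and 4 of the 12 were below them. The defining B cell markers Ms4a1 and Pax5, the T cell marker Cd3d and the erythroid marker Alas2 were at 0 in all 6 mice, although the B cell list summed to 0.276 to 7.13 RPKM through Cd79b and the T and NK cell list to 14.9 to 482 RPKM through Nkg7, with mouse 3.3 lowest in both. The erythroid list summed to 0.0307 to 0.303 RPKM. The part of the monocyte and neutrophil marker differences, and of Bcl11a, in the values of the interferon-stimulated genes was not tested.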

How the data were processed

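RNA of sorted KIT+Gr1+ leukemia cells from 6 mice was analyzed, 3 Hoxa9/MTV and 3 Hoxa9/IRX3, 1 strand-specific polyA library per mouse. The authors aligned paired reads to GRCm38 with Bowtie2 2.2.1, filtered them with SAMtools 0.1.19, assigned them to Ensembl genes and deposited RPKM for each gene, which divide by the whole gene span. Whole reads were recovered from the RPKM steps for all 47 genes, for 35 with the GENCODE M21 span and for 12 with a span fitted to the steps. Protein-coding genes over 0.5 RPKM in at least 1 mouse (9522) were tested with limma 3.58.1 (R 4.3.3, variance trend, Benjamini-Hochberg over all tested genes), after adding 0.5 to the RPKM and taking log2, and called at an adjusted p under 0.05, or with a 2-fold change as well. A fold change on this scale understates that of low genes. On simulated data for this comparison with 200 of 9522 genes changed 4-fold, 176 were called, with 2 unchanged ones. The changed genes were drawn only from genes above a limit of mean reads, and all simulated mice had the same spread. In the data the Hoxa9/IRX3 mice were spread more widely in 75.9% of tested genes. The simulated numbers thus do not apply to genes with few reads or with a wide spread in 1 cohort. A permutation test of single genes cannot reach p under 0.05 with 3 mice against 3. Python 3.11.15, numpy 2.4.6, pandas 2.3.3 and matplotlib 3.10.9 were used for the rest.

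The 47 genes and all lists were chosen with earlier results of these data known. Values in every mouse are given for genes called, for genes with cohorts apart and a log2 change of at least 0.5, for the 5 highest by mean RPKM and for the 5 with the widest range within a cohort. Receptors and transducers are named, some by their log2 change or range alone. Other genes were named after their values were seen. A gene of the transducer list is not reported here and is left out of that list's count. Alternatives were other pseudocounts (0.1 and 1), filters, gene types, scalings, sample weights, no variance trend, the criterion of the study, voom on recovered reads, each mouse left out in turn and, added after seeing the data, exon length in place of the span.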

Additional observations from a re-analysis of the deposited data

How the results depend on the processing

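Under 18 alternatives, 34 of the 41 tested genes kept the direction of their log2 change in every fit that gave a value. Of 674 values, 638 kept direction and side of the threshold, 14 lost the call, 13 gained one and 9 turned direction. The median log2 change stayed positive, at 0.31 to 0.56 when 1 mouse was left out. The number of genes called at an adjusted p (2) was 1 with no filter (Parp12), 1 with a mean of at least 1 RPKM (Dtx3l), 0 with all gene types, and 0 to 6 with 1 mouse left out. It was 0 without mouse 1.1, 1.2, 1.4 or 3.5, 3 without mouse 3.3 (Ddx58 and Samd9l higher, Mx1 lower) and 6 without mouse 3.2 (Dtx3l, Ifit2, Ifitm2, Ifitm3, Isg20 and Parp14). Over all tested genes the calls went from 510 to 76, 66 and 61 without mouse 1.1, 1.2 and 1.4, and to 482, 678 and 761 without mouse 3.5, 3.3 and 3.2. The number called at 2-fold as well (0) was 1 with a pseudocount of 0.1 (Ddx58), 2 with the criterion of the study, with voom and with exon length (Ddx58 and Parp12), and 0 to 4 with 1 mouse left out, 4 without mouse 3.2 and 3 without mouse 3.3 (the same 3 genes). The log2 changes that turned were those of Dhx58 (-0.37), Gbp3 (-0.22), Stat2 (-0.13), Xaf1 (-0.24) and Bst2 (-0.0284) without mouse 3.3, Tap1 (0.0819) without mouse 3.2, and Samd9l with voom (-0.10), without mouse 3.2 (-0.26) and without mouse 3.5 (-0.28). Fits without a mouse rest on 2 mice in 1 cohort, and the cause of these changes was not tested further. No paired analysis was possible because the mouse numbers are not shared between the cohorts. Genes under 0.5 RPKM rest on few reads, which limits their precision.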
